A study of Peniophora incarnata with 12 samples.

Results

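Fungal pheromone receptors let a mycelium recognise a compatible mate, and 2 genes annotated as such receptors are described here in the white-rot fungus Peniophora incarnata. The first, A17676, carries the name PRA1 (pheromone receptor 1). The second, A16932, carries the name BAR2 (pheromone B alpha 2 receptor). They are 2 of the 16059 genes in the expression table, and they were picked for their levels across the 12 libraries described here. Those levels, and the differences computed from them, are therefore a description with no test. The other 145 genes whose description begins with the word pheromone, 136 of them receptors, served as the comparison.

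In mushroom-forming fungi the receptors of this class span the plasma membrane 7 times and belong to the Ste3 family of G-protein-coupled receptors. They are encoded at a mating-type locus next to genes for short farnesylated peptide pheromones, and they pass the signal of a foreign pheromone through a heterotrimeric G protein to a mitogen-activated protein (MAP) kinase cascade. In species such as Schizophyllum commune, the source of the B alpha names, this pathway steers nuclear migration and clamp cell fusion after mating. The PRA1 name comes from the smut fungus Ustilago maydis. Many mushroom genomes also hold receptor-like genes outside the mating-type locus, whose ligands are mostly unknown. The names here are the best database matches that the authors gave each gene. The function terms in the table set PRA1 down as a receptor of the a-factor type and BAR2 as one of the alpha-factor type, and both are filed under the yeast MAP kinase pathway.

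The fungus was the wild type strain T-7, grown as mycelium for 30 days at 28 °C and 75% relative humidity, in the dark and without shaking. In 3 groups the only medium was a sieved plant powder, which was rice straw or the wood of poplar or Chinese fir, and the control group grew on PDA medium (potato dextrose agar). Each group had 3 samples labelled as biological replicates, and no further treatment was given. A single plant material stands for each kind of biomass, and the labels do not say whether the strain carries 1 or more mating types. RNA was enriched for poly(A) tails and sequenced from stranded libraries, and the values are FPKM (fragments scaled to gene length and sequencing depth), so levels of different genes are compared per length.

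The whole reads behind the FPKM values could be worked back and gave library totals of 23398461 to 31132066 reads. Poplar wood libraries differed among themselves more than the others did. Over all genes the Pearson correlation of log2(FPKM + 1) between libraries of a group was 0.865 to 0.950 for poplar wood and 0.967 to 0.989 for the other groups. Chinese fir wood replicate 1, rice straw replicate 3 and PDA replicate 2 resembled a mixture of the other libraries in the same group. Against that mixture their chi-square per gene was 7.21 to 11.8, and it was 19.99 to 43.8 for the other libraries of these materials. Counts of called genes are therefore also given without these 3 libraries. For PRA1 in Chinese fir wood and PDA, and for BAR2 in all 3 groups, the value of that library lay between the other values of its group.

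PRA1 (A17676) was high on poplar wood and low everywhere else. Its coding sequence as worked back from the values is 1014 bp long. On poplar wood its level was 38.8 FPKM in replicate 1, 45.6 FPKM in replicate 2 and 101 FPKM in replicate 3, from 1015, 1083 and 2620 reads. On Chinese fir wood the level was 6.43, 6.83 and 4.33 FPKM in replicates 1 to 3. On rice straw it was 1.94, 1.53 and 2.23 FPKM, and on PDA it was 0.574, 1.16 and 2.58 FPKM. Every poplar wood library therefore lay above every library of the other groups, every Chinese fir wood library lay above those of rice straw and PDA, and rice straw and PDA overlapped.

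The mean level of PRA1 was 61.9 ± 34.2 FPKM on poplar wood, 5.86 ± 1.34 on Chinese fir wood, 1.44 ± 1.04 on PDA and 1.90 ± 0.351 on rice straw (SD, n = 3 each). The ratio of group means was 43.1-fold between poplar wood and PDA, 10.6-fold between poplar wood and Chinese fir wood and 32.6-fold between poplar wood and rice straw. The lowest poplar wood library was still 15.01 times the highest PDA library. The level on Chinese fir wood was 4.08-fold that on PDA and 3.09-fold that on rice straw, by group means. The nearest libraries of the Chinese fir wood and PDA groups differed 1.67-fold.

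PDA replicate 3, the highest PRA1 level on PDA, sets part of these ratios. Without it, the ratio of poplar wood to PDA was 71.6, that of Chinese fir wood to PDA was 6.78 and that of rice straw to PDA was 2.198, in place of 1.32. On PDA the counts were small, with 14, 29 and 67 reads. The exact Poisson 95% interval of the level in PDA replicate 1 was 0.314 to 0.962 FPKM and that in PDA replicate 3 was 2.003 to 3.28 FPKM, and such intervals cover counting error only. On the scale of log2(FPKM + 1) the mean differences from PDA were 4.64 for poplar wood, 1.56 for Chinese fir wood and 0.33 for rice straw, and the pooled SD within groups was 0.50. Because 1 is added to each FPKM value, this scale understates differences of low values.

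BAR2 (A16932) showed another order, with high levels on PDA and rice straw and low levels on both woods. Its coding sequence is 1407 bp long. On PDA its level was 129 FPKM in replicate 1, 154 FPKM in replicate 2 and 170 FPKM in replicate 3, from 4357, 5355 and 6114 reads. On rice straw the level was 69.6, 103 and 87.7 FPKM in replicates 1 to 3. On Chinese fir wood it was 4.27, 2.04 and 4.90 FPKM, and on poplar wood it was 3.75, 4.59 and 1.25 FPKM. Both woods lay below rice straw and rice straw lay below PDA in every library, whereas the poplar wood and Chinese fir wood libraries overlapped.

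The mean level of BAR2 was 151 ± 20.8 FPKM on PDA, 86.7 ± 16.6 on rice straw, 3.74 ± 1.5 on Chinese fir wood and 3.20 ± 1.73 on poplar wood (SD, n = 3 each). Group means on PDA were 47.2-fold those on poplar wood and 40.3-fold those on Chinese fir wood. Rice straw was 27.1-fold above poplar wood and 23.2-fold above Chinese fir wood. The step from rice straw to PDA was smaller, with a ratio of means of 1.74 and a ratio of 1.25 between the nearest libraries. On the log2(FPKM + 1) scale the differences from PDA were -5.27 for poplar wood, -5.05 for Chinese fir wood and -0.80 for rice straw, with a pooled SD within groups of 0.47. The difference of poplar wood from Chinese fir wood was -0.22 and turned to 0.18 without poplar wood replicate 3, which held the lowest BAR2 value of all libraries.

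**Figure D1:**
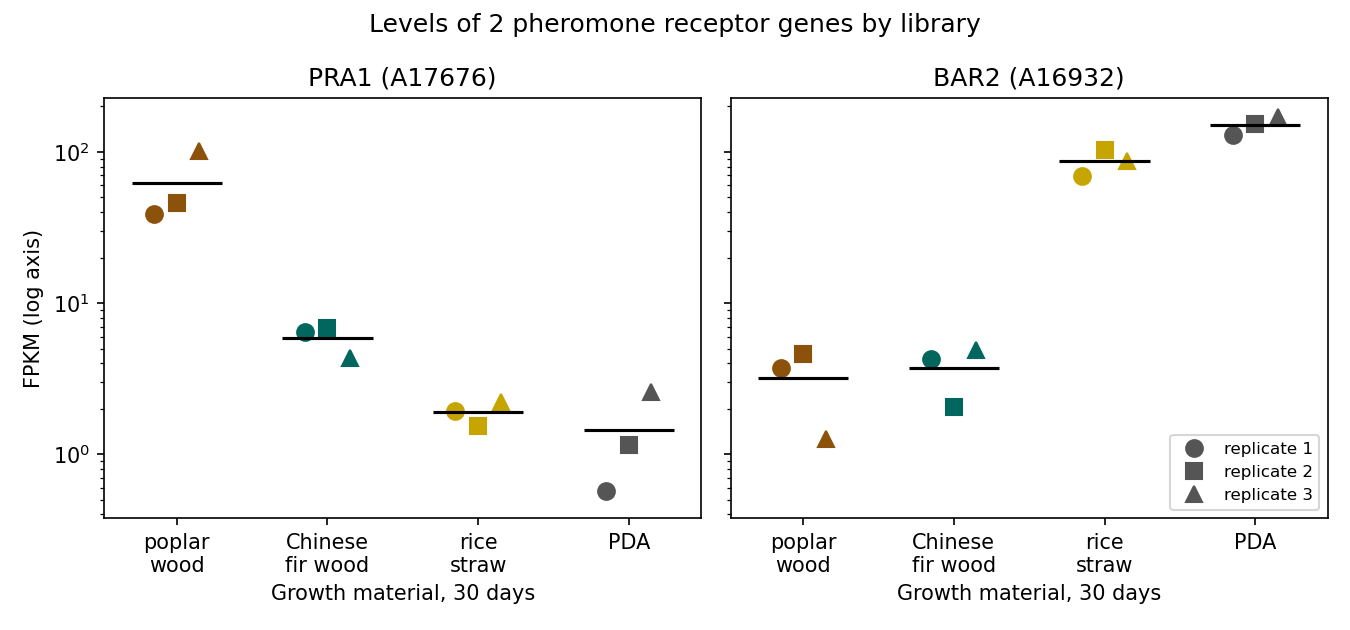
Level of PRA1 (left) and BAR2 (right) in each of the 12 libraries, in FPKM on a log axis, by growth material; symbols mark the replicate and black lines the group mean. PRA1 lies at 38.8 to 101 FPKM on poplar wood and at or below 6.83 FPKM elsewhere, while BAR2 lies at 69.6 to 170 FPKM on rice straw and PDA and at or below 4.90 FPKM on both woods.

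Groups that do not overlap are common in this table, so the separation of the libraries is to be read against that background. Among the 13974 genes that passed the filter on low values (1 FPKM or more in at least 3 of 12 libraries), the 3 libraries of 1 group lay all above or all below those of the other for 47.9% of genes between poplar wood and PDA. The share was 70.9% between Chinese fir wood and PDA, 64.8% between rice straw and PDA, 44.5% between the woods, 49.7% between poplar wood and rice straw, and 58.6% between Chinese fir wood and rice straw. BAR2 was at 1 FPKM or more in all 12 libraries and PRA1 in all but PDA replicate 1, so both passed the filter. In RNA from bulk mycelium, fewer cells with a transcript and less of it per cell cannot be told apart.

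Between the materials, the balance of the pair turned over. PRA1 exceeded BAR2 by 10.4-fold, 9.95-fold and 80.8-fold in poplar wood replicates 1 to 3, per length of gene. On Chinese fir wood both were low and the ratio of PRA1 to BAR2 was 1.51, 3.34 and 0.883, so neither led in every library. On rice straw BAR2 exceeded PRA1 by 35.9-fold, 67.2-fold and 39.3-fold, and on PDA by 224-fold, 133-fold and 65.8-fold. Poplar wood replicate 3 held both the highest PRA1 level and the lowest BAR2 level of the 12 libraries.

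The 138 receptor genes fall under 6 names. The table holds 56 rows named BAR2, 52 named BAR3, 17 named BAR1, 6 named PRA1, 4 named BBR1 and 3 named PRA2. With so many similar genes, reads could be shared or split between near-identical copies, and the sources used here do not say how the authors' counting treated such reads. Of the 138 genes, 33 stayed below 1 FPKM in every library and 90 passed the filter on low values, the 2 described receptors included. Only 36 reached a group mean of 10 FPKM and 10 reached 50 FPKM, so PRA1 and BAR2 belong to a small set of abundant receptor genes.

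Within this family PRA1 ranked 5th, 9th and 4th by FPKM in poplar wood replicates 1 to 3 and held 3.34% to 8.74% of the summed FPKM of all 138 genes there. In PDA it ranked 55th to 78th, with 0.0513% to 0.188% of the sum. BAR2 ranked 3rd in every rice straw library, with 9.96% to 10.9% of the sum, and 2nd to 4th in PDA, with 11.5% to 12.4%. On poplar wood it ranked 44th to 64th. The summed level of the family was 1158 to 1248 FPKM on poplar wood, 760.5 to 773.4 on Chinese fir wood, 699 to 940 on rice straw and 1118 to 1374 on PDA, so poplar wood and PDA overlapped in the sum.

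The leading receptors were partly shared between the materials. BAR3 (A14616) ranked 1st on PDA, 2nd on both woods and 4th on rice straw by group mean, and BBR1 (A14614) was among the 6 highest in every group. On poplar wood the most abundant were BBR1 (A14614) at 159 ± 24.0 FPKM and BAR3 (A14616) at 136 ± 48.8 FPKM (SD, n = 3). BAR3 (A02158) followed at a mean of 92.7 FPKM, which rests on replicate 1, since its libraries held 210, 51.2 and 16.8 FPKM. BAR3 (A01958) led on Chinese fir wood at 145 ± 56.3 FPKM. On rice straw BAR2 (A14818) and BAR3 (A02229) led at 143 ± 16.9 and 136 ± 37.1 FPKM, ahead of the described BAR2 gene at 86.7 ± 16.6 FPKM. On PDA the leading gene was BAR3 (A14616) at 220 ± 26.8 FPKM, followed by the described BAR2 gene.

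**Figure D2:**
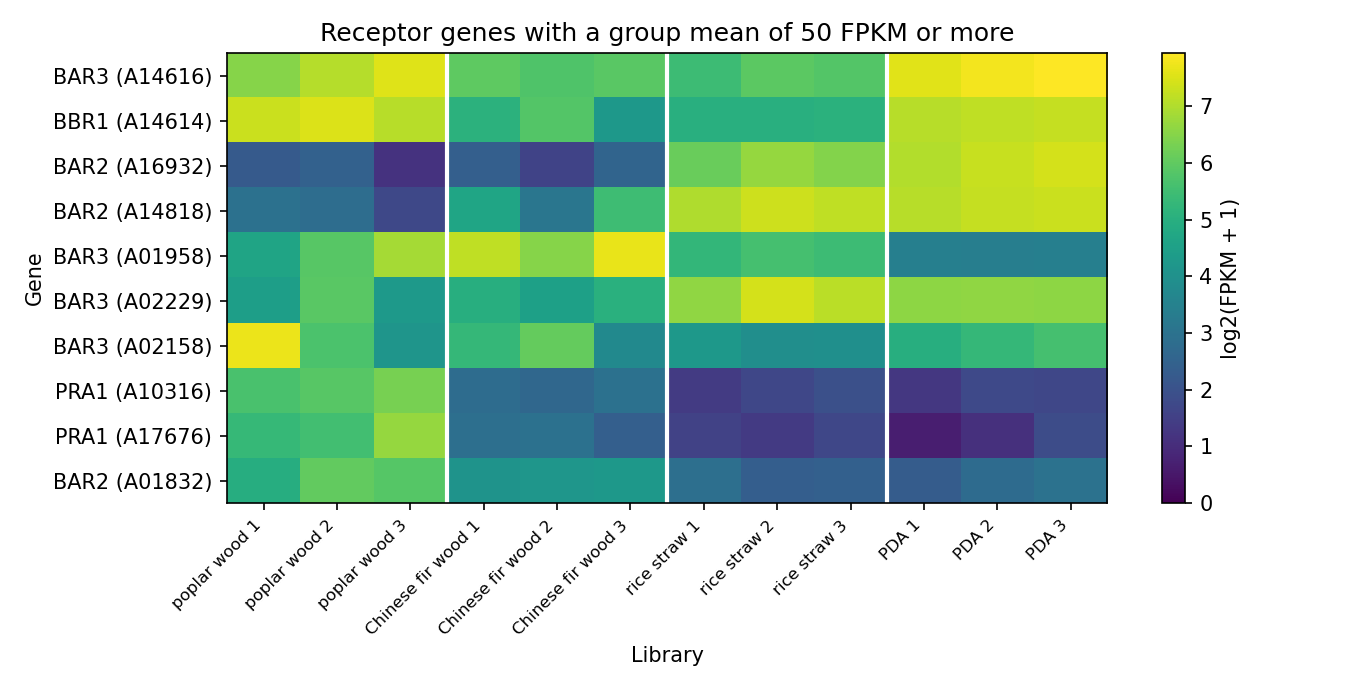
Levels of the 10 receptor genes with a group mean of 50 FPKM or more, as log2(FPKM + 1) by colour, with genes in rows and the 12 libraries in columns grouped by material. The 2 PRA1 rows are brightest on poplar wood, and the BAR2 rows A16932 and A14818 are bright on rice straw and PDA.

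The remaining 88 tested receptor genes were compared between materials with limma, fitted to log2(FPKM + 1) over all 13974 genes. Calls needed an adjusted p (Benjamini-Hochberg) below 0.05 and a log2 difference of 1 or more in size. On poplar wood against PDA 16 of the 88 rose and 8 fell, which is 27.3%, beside 25.4% of all tested genes (8.30% higher and 17.1% lower). The median log2 difference was 0.20 for these receptors and -0.18 for all tested genes. On Chinese fir wood against PDA 12 rose and 12 fell, again 27.3%, beside 30.5% of all genes (5.91% higher and 24.5% lower), with medians of -0.21 and -0.51. On rice straw against PDA 4 rose and 10 fell, 15.9% beside 20.9% of all genes (6.81% higher and 14.1% lower), with medians of -0.16 and -0.25. With both directions summed, the shares called lay near or below those of all genes. By direction, 18.2% and 13.6% of the receptors rose on poplar wood and on Chinese fir wood, above the 8.30% and 5.91% of all genes, and 9.09% and 13.6% fell, below the 17.1% and 24.5%. Some called receptors passed the filter through 1 material only, such as A16277 and A13052 on poplar wood and A17668 on PDA. The filter fixed the direction of those calls, and the same filter was applied to all genes.

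Between the plant materials the shares called, with both directions summed, again lay near or below those of all genes. Of the 88 genes, 12 were higher and 8 lower on poplar wood than on Chinese fir wood, 22.7% beside 24.2% of all genes (17.5% higher and 6.73% lower). On poplar wood against rice straw 14 were higher and 4 lower, 20.5% beside 28.8% (14.4% in each direction). On Chinese fir wood against rice straw 14 were higher and 3 lower, 19.3% beside 19.9% (5.70% higher and 14.2% lower). By direction, 13.6%, 15.9% and 15.9% of the receptors were higher and 9.09%, 4.55% and 3.41% were lower, in this order of comparisons. Here too the filter fixed the direction of some calls, such as those of A16277 on poplar wood. The medians of the receptors in these comparisons were 0.20, 0.35 and 0.14, beside 0.30, 0.07 and -0.23 for all tested genes.

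The split of directions depends on the scaling, since the median gene differed between groups in FPKM. Median-of-ratios scaling brought the median of all genes to within 0.02 of 0 in each comparison. With it the receptors split 18 to 7, 17 to 8 and 4 to 7 against PDA, higher to lower. All splits against PDA in this paragraph are listed in the order poplar wood, Chinese fir wood, rice straw. Between the woods the split turned to 9 higher and 13 lower on poplar wood, and Chinese fir wood against rice straw became 18 to 2. Over all genes the scaled splits were 1576 to 1764, 1637 to 1534 and 1397 to 1153 against PDA, 1347 to 1592 between the woods, 1857 to 2179 for poplar wood against rice straw and 1281 to 1372 for Chinese fir wood against rice straw. Without the 3 libraries that lie close to a mixture, the splits in FPKM were 12 to 8, 10 to 10 and 1 to 7 against PDA, 11 to 5 between the woods, 13 to 3 for poplar wood against rice straw and 5 to 2 for Chinese fir wood against rice straw. The number called thus fell by over 1.5 times for rice straw against PDA and for Chinese fir wood against rice straw. A pseudocount of 5 in place of 1 gave 7 to 6, 6 to 7 and 1 to 7 against PDA, 8 to 5 between the woods, and 10 to 2 and 5 to 2 for poplar wood and Chinese fir wood against rice straw. Between the woods the split was 21 to 11 with a pseudocount of 0.1 and 20 to 11 with voom on the worked-back reads, which gave 18 to 9 for Chinese fir wood against rice straw. Without poplar wood replicate 3, the split for poplar wood against rice straw was 24 to 3.

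**Figure D3:**
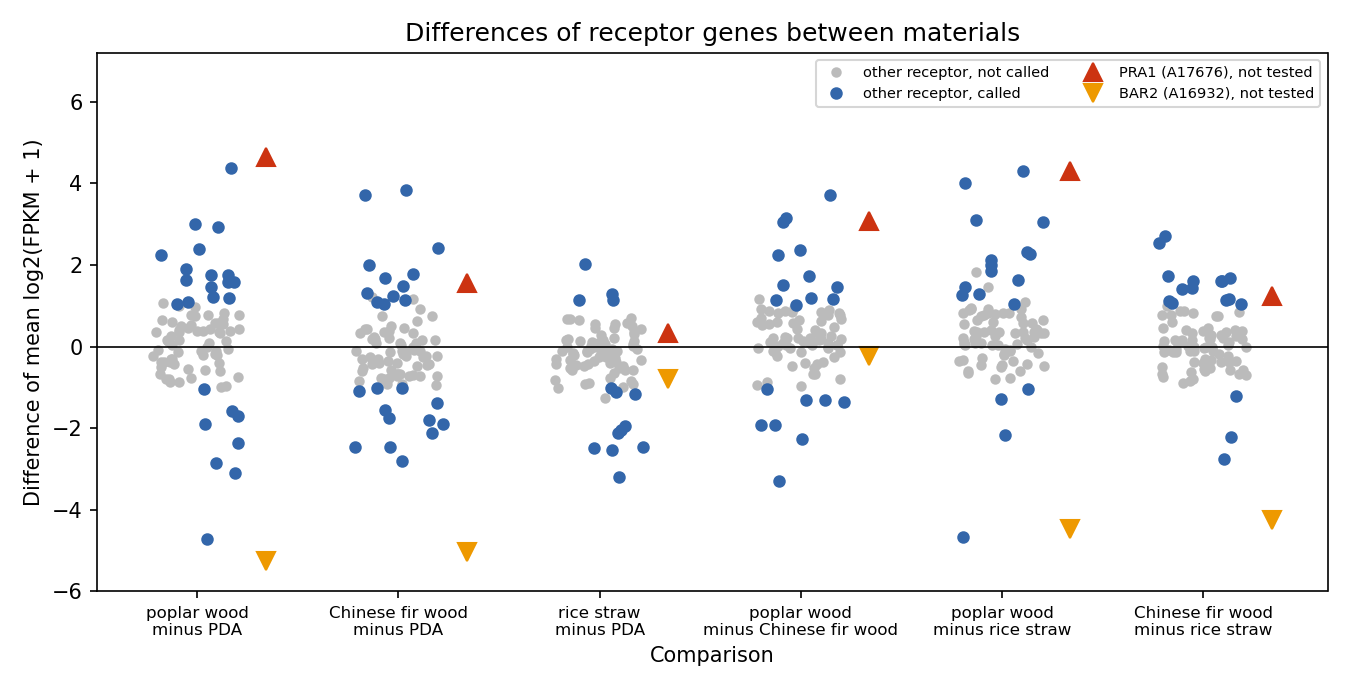
Difference of mean log2(FPKM + 1) between materials for the 88 other tested receptor genes (grey, not called; blue, called by limma) and, to their right, for PRA1 and BAR2 (triangles, not tested) in each of the 6 comparisons. PRA1 lies at 4.64 and BAR2 at -5.27 for poplar wood minus PDA, and the other receptors there span -4.71 to 4.39.

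A second gene named PRA1, A10316, with a coding sequence of 1779 bp, had nearly the same levels as the described one. It held 50.2, 58.1 and 78.6 FPKM on poplar wood and 5.96, 5.33 and 6.74 FPKM on Chinese fir wood. Its levels were 1.62, 2.202 and 2.80 FPKM on rice straw and 1.42, 2.34 and 2.24 FPKM on PDA. As for A17676, poplar wood was highest, Chinese fir wood came next, and rice straw overlapped PDA. It was the receptor with the largest rise on poplar wood against PDA, with a log2 difference of 4.39 ± 0.22 (SE; limma adjusted p = 4.27e-07). It also rose on Chinese fir wood by 1.23 ± 0.22 (limma adjusted p = 0.000848), a call that a pseudocount of 5 ended at 0.65, while the difference on rice straw was 0.09 ± 0.22 (limma adjusted p = 0.774). The other tested PRA1 gene, A09114, stayed between 0.504 and 3.32 FPKM and was not called against PDA, and the remaining 3 PRA1 genes did not pass the filter.

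Among the genes named BAR2, A14818 came nearest to the described gene. It held 137, 150 and 157 FPKM on PDA and 126, 160 and 144 FPKM on rice straw. On Chinese fir wood its levels were 24.7, 7.61 and 43.1 FPKM, and on poplar wood they were 6.74, 6.11 and 2.30 FPKM. Unlike the described gene it overlapped between rice straw and PDA, and its Chinese fir wood libraries all lay above those of poplar wood. Its fall against PDA was the largest of the other receptors on poplar wood, at -4.71 ± 0.48 (SE; limma adjusted p = 1.905e-05), and on Chinese fir wood, at -2.80 ± 0.48 (limma adjusted p = 0.00062). On rice straw the difference was -0.05 ± 0.48 (limma adjusted p = 0.947).

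The name BAR2 did not go with 1 pattern. Of the other 35 tested genes with that name, 6 rose and 6 fell on poplar wood against PDA, 2 rose and 6 fell on Chinese fir wood, and 0 rose and 7 fell on rice straw. As shares these were 17.1% in each direction, then 5.71% higher and 17.1% lower, then 20.0% lower, beside 8.30% and 17.1%, 5.91% and 24.5%, and 6.81% and 14.1% of all genes. Without the 3 libraries close to a mixture the counts were 4 and 6, 2 and 5, and 0 and 4. BAR2 (A06003) rose on poplar wood by 3.001 ± 0.43 on the log2 scale (limma adjusted p = 0.00019), from 4.38 ± 1.24 FPKM on PDA to 48.6 ± 27.9 FPKM. BAR2 (A01832) rose on poplar wood by 2.94 ± 0.28 (limma adjusted p = 1.24e-05) and reached 50.9 ± 18.4 FPKM there. BAR2 (A09012) had the largest fall of the other receptors on rice straw, at -3.21 ± 0.45 (limma adjusted p = 0.000252), and its mean was 22.8 FPKM on PDA and 1.66 FPKM on rice straw. In A16975, also named BAR2, the level on poplar wood, 26.3 ± 13.8 FPKM, overlapped that on PDA, 15.4 ± 4.36 FPKM, while both Chinese fir wood and rice straw were below 2.33 FPKM in every library.

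Receptors with other names reached their highest levels on each of the materials. BAR3 (A15032) had the largest rise on Chinese fir wood, 3.84 ± 0.31 on the log2 scale (limma adjusted p = 2.42e-06), with 26.0, 33.9 and 20.8 FPKM there and at most 1.36 FPKM on PDA. BAR3 (A01958) rose on all 3 materials against PDA, and its rise on rice straw, 2.03 ± 0.45 (limma adjusted p = 0.00423), was the largest of any other receptor there. That call was lost without the 3 libraries that lie close to a mixture, at a limma adjusted p of 0.0756. BAR1 (A17668) was at 5.93 ± 2.16 FPKM on PDA. Its means were 0.218 FPKM on rice straw, 0.331 FPKM on poplar wood and 0.204 FPKM on Chinese fir wood. This gene passed the filter through PDA only, so the filter fixed the direction of its calls on all 3 materials. BBR1 (A14614) and BAR3 (A14616) fell on Chinese fir wood and rice straw, by 2.11 and 1.89 on the log2 scale on the former and by 2.13 and 2.04 on the latter. Of the 90 tested receptor genes, the 2 described ones included, the highest mean was on poplar wood for 41, on PDA for 28, on Chinese fir wood for 12 and on rice straw for 9. Some genes passed the filter through 1 material only, so the filter fixed their place in these counts. Examples are A13052, A10261 and A16277 on poplar wood and A17668 on PDA. The counts have no share of all tested genes beside them and are a description.

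The 9 other genes whose description begins with pheromone are not receptors. KEX1 (A08163), a carboxypeptidase named for the trimming of pheromone precursors in yeast, had means of 56.3 to 88.0 FPKM in the 4 groups and was not called against PDA. The other 8 are named for yeast PRM10, a membrane protein induced by pheromone in yeast, and 7 of them passed the filter. Of these, 4 fell on poplar wood, the same 4 fell on Chinese fir wood, and 1 fell on rice straw, against PDA. Of all tested genes, 17.1%, 24.5% and 14.1% fell in these comparisons. The smallest of the falls on the woods were 1.025 (A08989) on poplar wood and 1.10 (A04194) on Chinese fir wood, near the fold threshold. These genes were not counted under median-of-ratios scaling. The largest fall on poplar wood was that of A08268, by 1.57 on the log2 scale from 4.83 FPKM on PDA to 0.956 FPKM.

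The pathway around the receptors was followed through lists built from names and descriptions, beginning with the enzymes that mature lipid-modified pheromones and export them. Of 19 tested genes on that list, 0 rose and 1 fell on poplar wood, 0 rose and 4 fell on Chinese fir wood, and 1 rose and 1 fell on rice straw, against PDA (limma). The falls make up 5.26%, 21.1% and 5.26% of the list, beside 17.1%, 24.5% and 14.1% of all genes, and the rise 5.26% beside 6.81%. With median-of-ratios scaling the 4 falls on Chinese fir wood became 0, with 1 rise. When the 3 libraries close to a mixture were left out, 1 gene fell on Chinese fir wood and none was called on the other materials. STE14 (A08283), a methyltransferase acting on prenylated cysteine, was the gene that fell on poplar wood and rice straw and the one that fell the most on Chinese fir wood, with a log2 difference of -1.91 on the first, -2.001 on rice straw and -1.997 on the last. Each of these calls was lost without PDA replicate 1, and also without poplar wood replicate 2, Chinese fir wood replicate 2 or rice straw replicate 1 in the comparison concerned, and on poplar wood and rice straw without PDA replicate 2. The limma adjusted p then lay between 0.0503 and 0.0982. The most abundant gene, mam4 (A02178), which encodes the same kind of enzyme, rose on rice straw by 1.52 ± 0.47 (limma adjusted p = 0.0235). That call too was lost without rice straw replicate 1 or 3 or PDA replicate 1 or 2, at a limma adjusted p of up to 0.0755. STE6 is the exporter of the yeast a-factor, and 5 genes carry that name. By description 3 of them are an alpha-factor-transporting ATPase, and 2 are given only as protein ste6, which does not name an exporter. All 5 were expressed in all groups, and of these A18838 fell on Chinese fir wood, by 1.19 on the log2 scale. That list also holds a haem farnesyltransferase and a Rab prenylation factor, which carry the search words but have other substrates.

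Heterotrimeric G proteins relay the signal of the receptors. Of 24 tested genes on that list, 2 rose and 7 fell on poplar wood, 0 rose and 7 fell on Chinese fir wood, and 0 rose and 4 fell on rice straw, against PDA. All of these were among the alpha subunits, which are 19 of the 24. The falls make up 29.2%, 29.2% and 16.7% of the list, beside 17.1%, 24.5% and 14.1% of all genes, and the rises 8.33% beside 8.30%. Without the 3 libraries close to a mixture 0 rose, and 7, 6 and 3 fell. With median-of-ratios scaling the counts for the list were 3 and 6, 3 and 5, and 0 and 3. GPA4 (A01896) had the largest fall on poplar wood, by 1.80 ± 0.28 on the log2 scale (limma adjusted p = 0.000352), from 193, 182 and 164 FPKM on PDA to 69.1, 66.8 and 28.2 FPKM. GPA4 (A03934) had the largest rise on poplar wood, 1.23 ± 0.30 (limma adjusted p = 0.00611), and its difference was 0.85 without poplar wood replicate 1 and 0.97 with a pseudocount of 5, short of the fold threshold. SSG-1 (A12210) had the largest fall on Chinese fir wood, by 2.41 ± 0.32 (limma adjusted p = 9.17e-05), and GPA4 (A13705) the largest on rice straw, by 2.39 ± 0.28 (limma adjusted p = 6.41e-05). The gamma subunit gg1 (A00697) was the most abundant gene of the list, with means of 433, 605, 375 and 448 FPKM on poplar wood, Chinese fir wood, rice straw and PDA, and was not called. The 2 genes named sst2 on this list encode a protease by their description, not the yeast regulator of G protein signalling.

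The kinase list, which holds MAP kinases, their upstream kinases and adapters, small GTPases and an adenylate cyclase, had no rise against PDA. Of 22 tested genes 3 fell on poplar wood, 7 fell on Chinese fir wood and 3 fell on rice straw by limma. These are 13.6%, 31.8% and 13.6% of the list, beside 17.1%, 24.5% and 14.1% of all genes. With the 3 libraries close to a mixture left out, 3, 4 and 1 fell. With median-of-ratios scaling 1 rose on Chinese fir wood, and 2, 1 and 1 fell in the same order. The largest falls were those of mpkA (A17063) on poplar wood, at -2.004 ± 0.40 on the log2 scale (limma adjusted p = 0.00181), mpkB (A17267) on Chinese fir wood, at -1.79 ± 0.34 (limma adjusted p = 0.00112), and PMK1 (A01042) on rice straw, at -1.49 ± 0.21 (limma adjusted p = 0.000246). The most abundant kinase, mpkB (A04349), was at 1042, 1113 and 876 FPKM on poplar wood and 570, 612 and 694 FPKM on PDA, and it was not called. Genes of the mpkA kind act in cell wall signalling in other fungi, and the list holds Hog1 kinases of osmotic stress as well.

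Of the 13 tested genes on the list of mating-type and sexual transcription factors, 1 was called higher and 1 lower on poplar wood, 1 rose and 3 fell on Chinese fir wood, and 0 rose and 2 fell on rice straw, against PDA (limma). The rises make up 7.69%, 7.69% and 0% of the list, and the falls 7.69%, 23.1% and 15.4%, beside 8.30%, 5.91% and 6.81% higher and 17.1%, 24.5% and 14.1% lower of all genes. With median-of-ratios scaling the counts were 1 and 1, 3 and 2, and 0 and 2, and without the 3 libraries close to a mixture 1 and 0, 0 and 2, and 0 and 1. The calls on poplar wood were those of HMGS and HD-10, given below, so no mating-type protein was called there. The A-alpha Z3 homeodomain protein (A04439), named for Schizophyllum commune, had 16.7, 11.5 and 10.7 FPKM on poplar wood and 16.7, 15.7 and 13.6 FPKM on PDA. MAT-2 (A00129) had 6.22, 9.22 and 2.92 FPKM on poplar wood and 6.99, 8.22 and 8.35 FPKM on PDA. The homeobox protein HD-10 (A02010) had the largest fall on poplar wood, by 1.67 ± 0.41 (limma adjusted p = 0.00659), and without poplar wood replicate 1 its difference was -1.04. The HMG-box protein gene A15537 had the largest rise on Chinese fir wood, 1.14 ± 0.30 (limma adjusted p = 0.00771), and fell short of the fold threshold without PDA replicate 1, at 0.95, and with a pseudocount of 5, at 0.57. The most abundant, TOS8 (A09642), another homeobox protein, was at 213 to 420 FPKM in all libraries and was not called. Some genes met the search pattern through a shared symbol only. PRF1 (A02237), which is prefoldin subunit 3 by its description, had the largest fall on both Chinese fir wood, -3.69, and rice straw, -3.79, and HMGS (A14414), an enzyme of sterol precursor synthesis, had the largest rise on poplar wood, 1.30, which a pseudocount of 5 brought to 0.53, under the fold threshold.

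Genes described by cell fusion, meiosis or fruiting stand for later sexual stages. Of 56 tested genes, 8 rose and 5 fell on poplar wood, 2 rose and 11 fell on Chinese fir wood, and 2 rose and 6 fell on rice straw, against PDA (limma). The rises make up 14.3%, 3.57% and 3.57% of the list, beside 8.30%, 5.91% and 6.81% of all genes, and the falls 8.93%, 19.6% and 10.7%, beside 17.1%, 24.5% and 14.1%. With median-of-ratios scaling the counts were 10 and 4, 5 and 5, and 7 and 5, and without the 3 libraries close to a mixture 5 and 5, 1 and 6, and 1 and 4. The hydrophobin SC3 (A09953), a coat protein of aerial hyphae and not particular to fruiting bodies in Schizophyllum commune, rose on all 3 materials, from 11.5, 9.88 and 10.7 FPKM on PDA to 73.4, 120 and 347 FPKM on poplar wood. Its log2 differences were 3.65 on poplar wood, 3.77 on rice straw and 2.63 on Chinese fir wood. Of the 12 tested genes named SC3 or SC1, 2 rose on poplar wood, 1 rose on Chinese fir wood, and 1 rose and 1 fell on rice straw. The largest fall on both woods was that of ran1 (A01813), a kinase named for restraining meiosis in fission yeast, by 2.78 on poplar wood and 2.57 on Chinese fir wood. The same gene was called higher on rice straw than on PDA, by 1.07. That call was lost without rice straw replicate 1 or 3 or any PDA replicate, at a limma adjusted p of 0.0522 to 0.0784, without the 3 libraries close to a mixture, at 0.210, and with TPM, at a difference of 0.97. Of the 13 tested ran1 genes, 1 rose and 3 fell on poplar wood, 0 rose and 5 fell on Chinese fir wood, and 1 rose and 1 fell on rice straw. On rice straw mug89 (A11302) had the largest fall of the list, by 1.69. The other mug89 gene, A07663, was the most abundant of the list, at 198 to 470 FPKM, and was not called.

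Outside the hydrophobins SC3 and SC1 and the ran1 kinases, 5 of 31 tested genes of that list rose on poplar wood against PDA and 2 fell. Of the same 31 genes, 1 rose and 6 fell on Chinese fir wood, and 0 rose and 4 fell on rice straw. In these comparisons 8.30%, 5.91% and 6.81% of all tested genes rose, and 17.1%, 24.5% and 14.1% fell. The 5 genes that rose on poplar wood are named after their values were seen. The meiotic recombinase dmc1 (A04487) was at 60.9, 127 and 153 FPKM on poplar wood and at 36.0, 43.6 and 40.0 FPKM on PDA (log2 difference 1.39, limma adjusted p = 0.00349). The regulator mei2 (A01954) was at 5.92, 12.2 and 78.6 FPKM on poplar wood and at 0.935, 1.42 and 1.31 FPKM on PDA (log2 difference 3.13, limma adjusted p = 0.00458), and without poplar wood replicate 3 its difference was 2.11. The meiotic chromosome protein HOP1 (A15952) and both meu26 genes (A05774 and A10484) rose by 1.08, 1.13 and 1.23, and all 3 fell short of the fold threshold with a pseudocount of 5, at 0.61, 0.68 and 0.78. HOP1 fell short of the fold threshold without poplar wood replicate 3, at 0.82, and A05774 without poplar wood replicate 2 or 3, at 0.96 and 0.92. For both, the limma adjusted p without the 3 libraries close to a mixture was 0.0562 and 0.0616.

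The summed level of the 31 genes of that list outside SC3, SC1 and ran1 was 1084 to 1342 FPKM on poplar wood and 983 to 1007 on Chinese fir wood. It was 1031 to 1119 FPKM on rice straw and 1231 to 1286 FPKM on PDA. Abundant genes such as mug89 (A07663) weigh most in this sum and genes at low levels hardly count. The sum therefore cannot measure the sexual tissue in the samples. The sum on poplar wood, where PRA1 was high, and on PDA, where BAR2 was high, overlapped. Any part of such tissue in the levels of the receptors was not tested.

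Over all lists together, without PRA1 and BAR2, 222 genes were tested. Of these, 27 rose and 25 fell on poplar wood against PDA, 23.4%, 15 rose and 44 fell on Chinese fir wood, 26.6%, and 7 rose and 26 fell on rice straw, 14.9%. For all tested genes the shares in these comparisons were 25.4%, 30.5% and 20.9%. The medians of the log2 differences were -0.05, -0.35 and -0.20 for the lists. With median-of-ratios scaling the splits were 32 to 21, 30 to 21 and 12 to 19. Without the 3 libraries close to a mixture they were 18 to 23, 11 to 29 and 2 to 16, so the number called on rice straw was 18 in place of 33. The calls named above for STE14 and mam4, for GPA4 (A03934), HD-10 and A15537 against PDA were then lost too, at a limma adjusted p of 0.0557 to 0.175.

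The genes nearest in pattern to each receptor were found by the root-mean-square (RMS) difference of log2(FPKM + 1), each gene centred on its own mean, over the 12 libraries. For PRA1 the nearest of all tested genes was the other PRA1 gene, A10316, with an RMS difference of 0.35 on the log2 scale. It was followed among described genes by the monooxygenase str9 (A00507) at 0.56, a probable extracellular serine carboxypeptidase (A06518) at 0.61, aspergillopepsin-2 (A05374), an acid protease, at 0.64 and the efflux protein apdF (A06805) at 0.65. No undescribed gene was nearer than the first, and 2, 4, 4 and 5 undescribed genes were nearer than the others. On poplar wood these 4 genes held means of 55.6, 42.7, 209 and 61.6 FPKM, and on PDA 1.63, 3.37, 7.68 and 4.69 FPKM. The next receptor was BAR2 (A01832), which ranked 18th with an RMS difference of 0.77.

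For BAR2 the nearest described genes were AIM9 (A05031), a mitochondrial protein, at 0.63 and RIM101 (A04452), the transcription factor of the ambient pH response, at 0.67. A probable glycosidase (A03938) at 0.76, a zinc-type alcohol dehydrogenase-like protein (A13323) at 0.77 and the cyanamide hydratase DDI2 (A02397) at 0.77 followed. Undescribed genes nearer than these numbered 1, 3, 5, 5 and 5. RIM101 was far more abundant, with means of 1501 FPKM on PDA, 933 on rice straw, 111 on Chinese fir wood and 89.5 on poplar wood. The nearest receptor was BAR2 (A14818), which ranked 18th with an RMS difference of 0.89, and the next was BAR3 (A02229), which ranked 221st. Since these genes were chosen for their likeness, no test is given, and the lists depend on the poplar wood libraries. Without those libraries 1 of the 5 nearest genes was shared for PRA1 and 0 of 5 for BAR2.

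**Figure D4:**
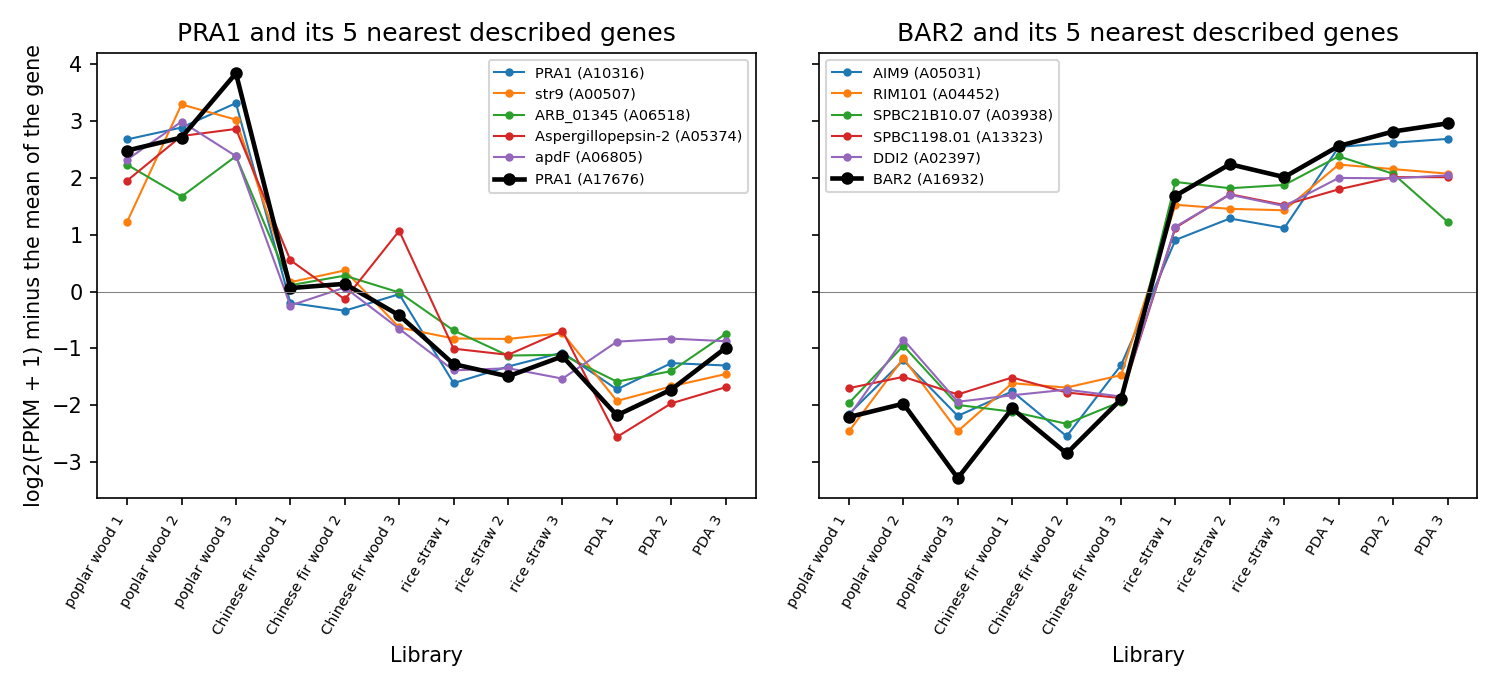
Profile of PRA1 (left) and BAR2 (right) in black with their 5 nearest described genes in colour, as log2(FPKM + 1) minus the mean of the gene, over the 12 libraries. The PRA1 set stands high in the 3 poplar wood libraries, and the BAR2 set stands high in the 6 rice straw and PDA libraries.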

How the data were processed

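The 12 libraries of mycelial RNA were analysed from 1 table in which the authors had deposited FPKM per gene. The submitters' processing notes name DESeq2, HTSeq, HISAT2 and fastp without roles or versions, and no genome build is named in the sources used here. Whole reads and gene lengths were worked back from FPKM steps, with 16055 of 16059 genes whole within 0.001 reads, 99.0% of lengths multiples of 3, and the totals of 12 of 12 simulated libraries recovered. All groups entered 1 limma 3.58.1 fit (R 4.3.3) on log2(FPKM + 1) with eBayes and trend, adjusted over 13974 genes, without a replicate block. The limma step was tested on simulated data. P-values weigh each difference against the spread between samples, which the fit pools over the 4 groups. Poplar wood libraries spread more, with a median gene SD of 0.462 beside 0.151 to 0.194 in the other groups. The pooled SE can therefore be too small for poplar wood. Fits of only the 2 groups compared called 12 other receptors higher and 8 lower on poplar wood against PDA, not 16 and 8. For Chinese fir wood against PDA they called 14 and 12, and for rice straw 4 and 12. Some comparisons share the PDA libraries.

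The members and lists were chosen with earlier results of these data known. Named genes are PRA1, BAR2, other pheromone rows, in each list the largest called rise and fall against PDA and the most abundant gene, and the 5 nearest genes in pattern. Exceptions are stated where they occur. Alternatives were the pseudocount (0.1 or 5), no filter, no fold threshold, median-of-ratios scaling, TPM, fits of 2 groups, a replicate block, voom on recovered reads, and libraries left out. Protein and promoter sequences were not used here.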

Additional observations from a re-analysis of the deposited data

How the results depend on the processing

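The choice of scale moved the log2 differences of PRA1 and BAR2 and left their direction unchanged. A pseudocount of 5 gave 3.27 and 0.76 for PRA1 against PDA on poplar and fir wood, 2.52 between the woods, and 3.16 and 0.65 against rice straw on poplar and fir wood. For BAR2 it gave -4.26 and -4.16 against PDA and -3.49 and -3.39 against rice straw, in the same order. A pseudocount of 0.1 gave 5.43 and 2.15 for PRA1 against PDA on poplar and fir wood and 4.84 for poplar wood against rice straw, and voom gave 5.52, 2.24 and 4.89 for the same. For BAR2 voom gave -5.75 on poplar wood against PDA and -4.94 against rice straw, and median-of-ratios scaling gave -4.52 on fir wood against PDA. Leaving out 1 library at a time, PRA1 against PDA ranged from 4.23 to 4.96 on poplar wood, 1.28 to 1.88 on fir wood and 0.05 to 0.65 on rice straw. It ranged from 2.67 to 3.35 between the woods, and against rice straw from 3.90 to 4.58 on poplar wood and 1.12 to 1.40 on fir wood. For BAR2 the ranges in that order were -5.53 to -4.87, -5.23 to -4.76, -0.93 to -0.65, -0.51 to 0.18, -4.73 to -4.07 and -4.44 to -3.96. The reversal to 0.18 came without poplar wood replicate 3.

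All genes called with a pseudocount of 5 numbered 2338 on poplar wood, 2512 on fir wood and 1858 on rice straw against PDA, 2029 between the woods, and 2633 and 1680 for poplar and fir wood against rice straw. In that order no fold threshold gave 5809, 7105, 5140, 5753, 6538 and 4651. Genes of the pathway lists called were 33, 33, 26, 24 and 20 with a pseudocount of 5, leaving out rice straw against PDA, and 83, 105, 70, 84, 87 and 67 with no fold threshold. Without the 3 libraries close to a mixture 1446 genes and 18 pathway genes were called for rice straw against PDA, and 1392 and 15 for fir wood against rice straw. Leaving out 1 library at a time, all genes called ranged over 3236 to 4103, 3948 to 4374, 2452 to 3066, 3000 to 4321, 3788 to 4368 and 2433 to 2934. Pathway genes then ranged over 46 to 61, 50 to 61, 24 to 41, 37 to 66, 39 to 57 and 30 to 39. The cause of these moves was not tested.

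Deviations of samples with the same replicate number correlated from -0.192 to 0.327 between groups. The labels do not say whether the numbers pair the samples, and these correlations cannot settle it. With the replicate block 3564, 4267, 2939, 3392, 4047 and 2789 genes and 52, 59, 33, 45, 44 and 37 pathway genes were called. Depth limits PRA1 on PDA, where it rests on 14 to 67 reads.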
